A study of Rattus norvegicus with 6 samples.

Results

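The genes described here were lower in livers of carcinogen-treated rats than in control livers and higher again when N-acetylcysteine was given with the carcinogens. They are 142 of the 16898 gene IDs that passed the expression filter, out of 43360 IDs counted, and make up 0.84% of those that passed. Members were chosen by their measured levels in all 6 libraries, as CPM, the count relative to the library size after TMM scaling, a factor that corrects for differences in composition between libraries. A member had a mean control CPM of at least 5, a mean in the HCC group of at most 50% of control, a mean in the HCC/NAC group of at least 2 times that in HCC, and both HCC libraries below each of the 4 other libraries. The fall in HCC and the rise from HCC to HCC/NAC are therefore the criteria of choice and are given as descriptions. The rule set no condition on HCC/NAC directly against control, and how near the members came to control is what could be read from these libraries, although all 3 group means enter the rule.

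All animals were male rats of the inbred Fischer-344 strain, and livers were taken after 16 weeks. The design lists 18 rats in 3 groups. Control rats were given the vehicle, 0.5% carboxymethyl cellulose by mouth each day. HCC rats were injected weekly with 50 mg/kg diethylnitrosamine (DEN) and then given 25 mg/kg 2-acetylaminofluorene (2-AAF) by mouth. HCC/NAC rats received both carcinogens and also 300 mg/kg N-acetylcysteine (NAC) by mouth each day, so no group received NAC alone. Each group had 2 libraries of poly(A) RNA, made by pooling the RNA of 5 animals per group, and the labels do not say whether the 2 libraries of a group held different animals. Spread between libraries, and each p-value below, may therefore be technical only. The labels name liver tissue and do not say whether tumour nodules or the liver around them were taken. They also call the pooled animals mice, against the organism label.

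DEN is turned into a DNA-alkylating agent by cytochrome P450 enzymes of hepatocytes, and 2-AAF, an aromatic amine, also forms DNA adducts after activation in the liver. Together they are used to produce hepatocellular carcinoma (HCC) in rats, and preneoplastic and tumour tissue of such livers is known to lose transcripts of mature hepatocytes. NAC is a cysteine donor for glutathione, the thiol that traps reactive metabolites and peroxides. The deposited tables give Ensembl rat IDs alone, and 0 of the 16898 IDs could be paired with a symbol here. What the members encode, their positions, their promoters and the liver markers were thus not analysed. Members are given by their rank in control livers, and 4 of them by ID. CPM values are not corrected for transcript length, so a rank reflects read counts and not molecules.

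The 142 members were a minority of the genes that were low in HCC livers. Of 9265 IDs with a mean control CPM of at least 5, 922 had a mean HCC level of at most 50% of control. Among these 922, the mean HCC/NAC level was at least 2 times the HCC level for 150 IDs, and 8 of the 150 were dropped because single libraries overlapped. The members were thus 15.4% of the lowered IDs. Of the 780 lowered IDs that were not members, 436 had a mean above HCC in HCC/NAC livers and 344 had a mean at or below it. The opposite pattern, found by the same thresholds with the directions exchanged, held for 203 IDs.

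Members covered a wide range of levels. The median member had 43.3 and 48.8 CPM in control replicates 1 and 2, 10.001 and 10.6 CPM in HCC replicates 1 and 2, and 28.3 and 28.2 CPM in HCC/NAC replicates 1 and 2. Mean control levels ran from 5.01 to 31198 CPM. Mean HCC levels ran from 0.0818 to 1091 CPM, and mean HCC/NAC levels from 0.808 to 4707 CPM. Expressed relative to control, the median member stood at 23.3% in HCC, with quartiles of 9.07% and 33.7%, and at 64.7% in HCC/NAC, with quartiles of 34.3% and 96.1%. The median ratio of HCC/NAC to HCC was 2.74, with quartiles of 2.29 and 3.88.

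**Figure D1:**
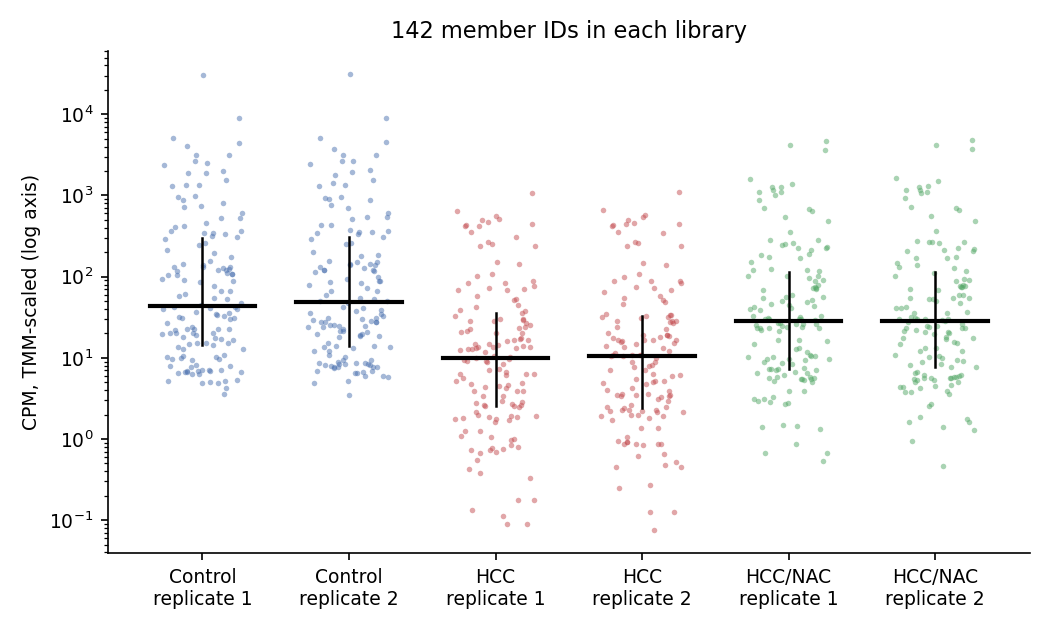
CPM of the 142 members in each of the 6 libraries on a log axis; each point is 1 gene ID, the thick bar is the median and the thin line spans the quartiles. Medians lie at 43.3 and 48.8 CPM in control, 10.001 and 10.6 CPM in HCC, and 28.3 and 28.2 CPM in HCC/NAC libraries.

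The members held a larger share of the read counts in control libraries than in HCC libraries. Their counts added up to 8.67% and 8.76% of all counts in control replicates 1 and 2. In HCC replicates 1 and 2 the share was 1.14% in both, and in HCC/NAC replicates 1 and 2 it was 3.02% and 3.07%. By this sum, which uses no scaling factor, HCC/NAC livers lay above HCC and far below control. The rule placed both HCC libraries below all others for each member, so the lowest share in HCC follows from the choice of members. Control and HCC/NAC libraries, on which the rule set no direct condition, did not overlap. Control libraries had a mean share of 8.72% ± 0.065, HCC libraries of 1.14% ± 0.0062 and HCC/NAC libraries of 3.05% ± 0.033 (SD, n = 2 libraries of pooled RNA each). Abundant members weighed heavily in it. The 10 members with the highest control CPM held 6.20% ± 0.043 of control counts, 0.452% ± 0.0024 of HCC counts and 1.68% ± 0.021 of HCC/NAC counts (SD, n = 2 libraries each). The remaining 132 members held 2.51% ± 0.022, 0.688% ± 0.0086 and 1.37% ± 0.011 (SD, n = 2 libraries each).

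**Figure D2:**
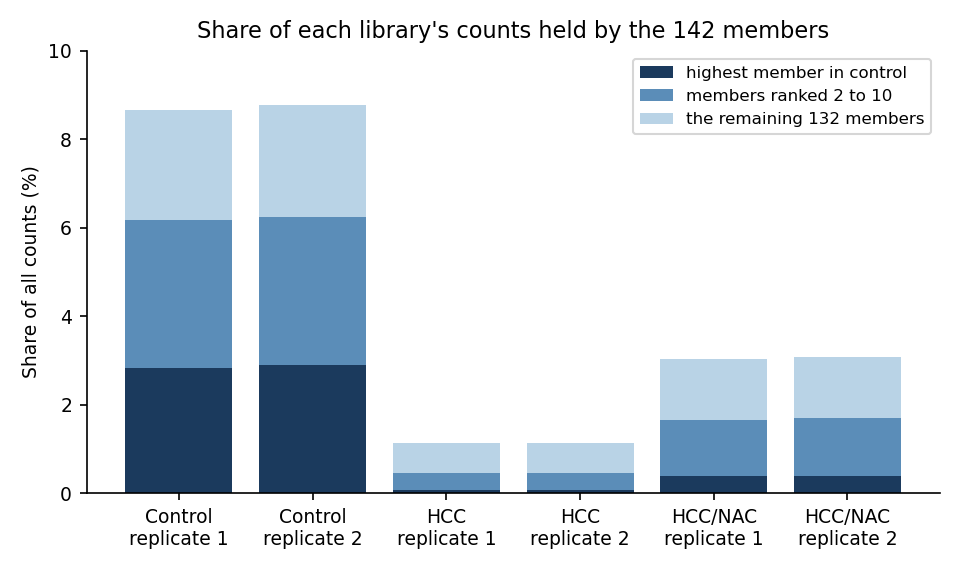
Share of all counts of each library, in percent, held by the 142 members, split into the member with the highest control level, the members ranked 2 to 10 in control and the remaining 132. Bars reach 8.67% and 8.76% in control, 1.14% in both HCC libraries, and 3.02% and 3.07% in HCC/NAC libraries.

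Most members remained below control when NAC was given. In HCC/NAC against control livers, 86 members were lower, 9 were higher and 47 had no call at an adjusted p under 0.05 (edgeR quasi-likelihood test, Benjamini-Hochberg adjustment over all 16898 IDs). Lower calls covered 60.6% of the members, beside 24.9% of all IDs tested and 41.99% of the 9265 IDs at a control level of at least 5 CPM. Of the 780 lowered IDs that were not members, 93.7% were called lower and 0 higher. Except for the 8 IDs dropped on single libraries, the rule itself held their mean HCC/NAC level below control. Nothing is therefore read from their calls or from their median given below. Whether these shares differ was not tested, since control and HCC/NAC levels both entered the choice of members. Higher calls covered 6.34% of the members, beside 21.3% of all IDs tested and 19.96% of IDs at that control level. The median log2 fold change of HCC/NAC against control was -0.63 over the members, 0.05 over all IDs tested, -0.25 over IDs at a control level of at least 5 CPM and -1.38 over the lowered IDs that were not members. Without regard to the test, both HCC/NAC libraries lay below both control libraries for 99 members and above both for 19, and the libraries overlapped for 24. The same counts were not made over all IDs, so nothing is read from them. By the calls, the name restored fits a part of these genes only. A fit of IDs averaging at least 10 CPM, added as an alternative once the data had been seen, tested 101 members and called 61 lower and 19 higher.

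The contrasts that the rule used gave the calls that the choice of members favours. In HCC against control 142 of 142 members were called lower, beside 17.8% of all IDs tested, and in HCC/NAC against HCC 137 were called higher, beside 11.2% of all IDs (edgeR, adjusted p under 0.05). The 5 members without a call in the latter contrast had HCC/NAC levels of 2.10 to 3.12 times HCC. They included members with as few as 5 counts in an HCC library.

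In CPM, the median member regained 54.1% of the difference between control and HCC, with quartiles of 25.2% and 94.3%. At least 50% of the difference was regained by 75 members and at least 100% by 32 members, while 16 members regained under 10%. The level in HCC/NAC was under 25% of control for 29 members, from 25% to under 50% for 23, from 50% to under 100% for 58, and at or above control for 32. Members called higher than control had a median of 136% of control in HCC/NAC livers, those without a call 99.5% and those called lower 41.1%. The corresponding medians in HCC livers were 38.6%, 34.9% and 14.4% of control.

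The members were also described by the ratio of control to HCC, a value the rule used, in classes chosen after the data were seen. In the 65 members with a control level of 2 to under 4 times HCC, the HCC/NAC level had a median of 95.2% of control, and 16 were called lower, 9 higher and 40 had no call (edgeR). The rule alone held this class at 50% of control or more. In the 35 members with a difference of 4 to under 8 times, the median was 54.3% of control, with 31 lower, 0 higher and 4 without a call. For the 13 members with a difference of 8 to under 16 times it was 32.6%, with 12 lower, 0 higher and 1 without a call. For the 29 members with a difference of 16 times or more it was 11.2%, with 27 lower, 0 higher and 2 without a call. Both percentages share the control libraries and the rule sets a floor of 2 times HCC, so the order of these medians is largely set by the choice of members. Single members departed from it, as the one with the largest ratio of control to HCC stood at 5.87% of control in HCC/NAC and another, at 9.06% of control in HCC, stood at 156%. The ratio of HCC/NAC to HCC had medians of 2.42, 2.45, 3.66 and 4.93 in these 4 classes. This ratio has the HCC mean as denominator, as does the one that formed the classes, so a low HCC value raises both and nothing is read from their order.

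**Figure D3:**
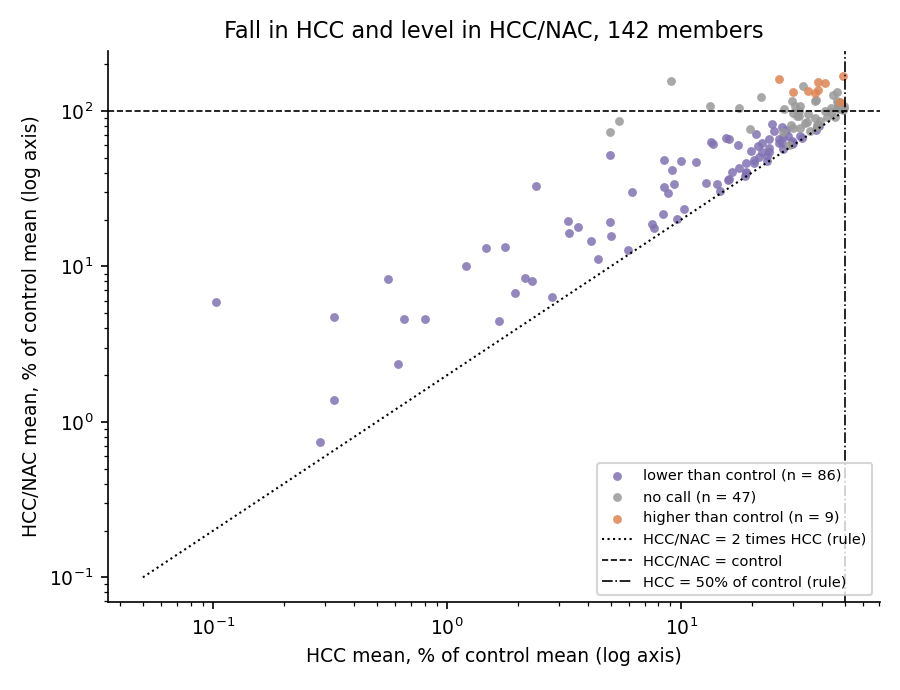
HCC mean against HCC/NAC mean, both in percent of the control mean on log axes, for the 142 members; colours give the edgeR call of HCC/NAC against control, and the dotted, dashed and dash-dotted lines mark HCC/NAC at 2 times HCC, HCC/NAC at control level and HCC at 50% of control. The 86 members called lower have HCC/NAC levels of 0.743% to 82.2% of control, and the 9 called higher have HCC levels of 26.1% of control or more.

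In percent of control, abundant members had the lower median levels in HCC/NAC and also in HCC, over classes of control level likewise chosen after the data were seen. The control mean forms these classes and is the denominator of both percentages. A high control value therefore lowers both, and nothing is read from the order of these medians. For the 17 members with a mean control CPM of at least 1000, the HCC/NAC level had a median of 41.9% and the HCC level of 9.11% of control, and 16 were called lower in HCC/NAC and 1 had no call (edgeR). For the 40 members from 100 to under 1000 CPM the HCC/NAC median was 49.96% and the HCC median 18.8%, with 33 lower, 3 higher and 4 without a call. For the 39 members from 20 to under 100 CPM they were 73.9% and 26.9%, with 21 lower, 3 higher and 15 without a call. For the 46 members from 5 to under 20 CPM they were 78.6% and 29.5%, with 16 lower, 3 higher and 27 without a call. Lower calls also differed by level over all IDs tested. From the highest class to the lowest, they covered 71.4%, 75.3%, 50.7% and 24.8% of all IDs at that control level, beside 94.1%, 82.5%, 53.8% and 34.8% of the members. Whether these shares differ was not tested. Replicates lay further apart at low levels, with a median fold between HCC/NAC replicates of 1.24 in the lowest class and 1.04 in the highest, so a missing call carries less weight there.

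The member with the highest control level, ENSRNOG00000083187, was picked out after its values were seen. It had 30636 and 31761 CPM in control replicates 1 and 2, 555.6 and 546.4 CPM in HCC replicates 1 and 2, and 4155 and 4149 CPM in HCC/NAC replicates 1 and 2. The 3 groups were far apart and their libraries did not overlap. HCC stood at 1.77% and HCC/NAC at 13.3% of control, and HCC/NAC differed from control by -2.91 ± 0.022 on the log2 scale (SE; adjusted p = 9.49e-16 by edgeR). This ID was picked by its control level, so the p-value is a description and not a test. This ID alone held 2.86% ± 0.058 of all control counts, 0.0655% ± 0.0013 of HCC counts and 0.381% ± 0.0018 of HCC/NAC counts (SD, n = 2 libraries each). Without it the members held 5.86% of control counts, 1.07% of HCC counts and 2.67% of HCC/NAC counts.

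Among the other abundant members the distance that remained to control differed widely. The member ranked 2 in control had 8985 and 8970 CPM in control, 447.0 and 445.2 CPM in HCC, and 4654 and 4760 CPM in HCC/NAC libraries. It regained 49.9% of the difference, and its HCC/NAC level exceeded that of the top-ranked member. The member ranked 4 had 4379 and 4528 CPM in control, 1085 and 1097 CPM in HCC, and 3588 and 3731 CPM in HCC/NAC libraries, which is 82.2% of control. At the other end, the member ranked 7 had 3138 and 3186 CPM in control, 20.2 and 18.8 CPM in HCC, and 74.9 and 73.8 CPM in HCC/NAC libraries. Its HCC/NAC level was 3.81 times HCC and only 2.35% of control. All 10 members with the highest control levels were called lower in HCC/NAC than in control (edgeR), at 2.35% to 82.2% of control. Of all 126 IDs with a control CPM of 1000 or more, 71.4% were called lower. The 10 members were ranked by their control level, and a high control value favours a lower call. Nothing is therefore read from the calls of these 10. The member ranked 15 was the most abundant one without a call. It had 1347 and 1414 CPM in control, 416.1 and 447.9 CPM in HCC, and 1284 and 1277 CPM in HCC/NAC libraries (adjusted p = 0.054 against control, edgeR).

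**Figure D4:**
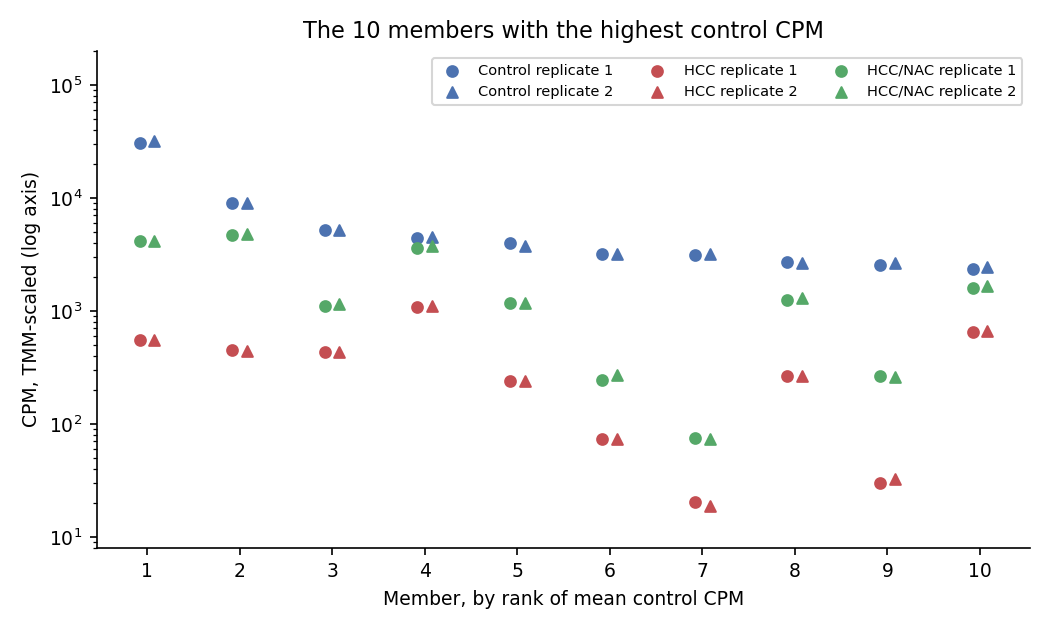
CPM on a log axis of the 10 members with the highest mean control level, by rank, in control, HCC and HCC/NAC libraries; circles are replicate 1 and triangles replicate 2. For each of the 10 the HCC/NAC libraries lie between HCC and control, from 2.35% of control for the member ranked 7 to 82.2% for the member ranked 4.

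The member with the largest ratio of control to HCC was ENSRNOG00000069055. It had 77.3 and 82.6 CPM in control replicates 1 and 2, 0.0888 and 0.0749 CPM in HCC replicates 1 and 2, and 5.45 and 3.94 CPM in HCC/NAC replicates 1 and 2. The HCC values rest on 4 and 3 counts, against 2668 and 2736 in control and 181 and 128 in HCC/NAC libraries. The transcript was thus close to the limit of detection in HCC livers and measurable in both HCC/NAC libraries. The pooled count ratio of control to HCC was 971 (95% interval 471 to 2417) and that of HCC/NAC to HCC was 57.2 (27.4 to 143). The exact binomial intervals cover counting error only. They make no allowance for the choice of this ID by its ratio of control to HCC, and the rule used both ratios. HCC/NAC remained at 5.87% of control, a log2 difference of -4.09 ± 0.16 (SE; adjusted p = 1.44e-09 by edgeR). The control level entered the choice of this ID, so that p-value is a description and not a test.

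ENSRNOG00000014555 had the second largest ratio of control to HCC and the lowest HCC/NAC level relative to control. Control replicates 1 and 2 had 157.6 and 150.6 CPM, HCC replicates 1 and 2 had 0.755 and 0.125 CPM, and HCC/NAC replicates 1 and 2 had 0.873 and 1.42 CPM. HCC replicate 1 held 34 counts and HCC replicate 2 held 5, while HCC/NAC replicates 1 and 2 held 29 and 46. HCC replicate 1 thus held more counts than HCC/NAC replicate 1, out of totals of 37717373 and 36091933. Its lower CPM rests on the scaling factors, and so does the place of this ID among the members. The difference between HCC/NAC and HCC had an adjusted p of 0.057 (edgeR). HCC/NAC stood at 0.743% of control, a log2 difference of -7.07 ± 0.27 (SE; adjusted p = 1.19e-09 by edgeR). This ID was named for its low HCC/NAC level relative to control, so that p-value is a description and not a test. By its level this ID met the rule while staying almost as far from control as in HCC.

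ENSRNOG00000002597 came next in the order of HCC/NAC relative to control. Control replicates 1 and 2 had 57.7 and 59.6 CPM, HCC replicates 1 and 2 had 0.133 and 0.2496 CPM, and HCC/NAC replicates 1 and 2 had 0.663 and 0.954 CPM. The HCC libraries held 6 and 10 counts and the HCC/NAC libraries 22 and 31. HCC/NAC was 1.38% of control, a log2 difference of -6.18 ± 0.21 (SE; adjusted p = 5.03e-10 by edgeR). It too was named for its low HCC/NAC level relative to control, so the p-value is likewise a description only. For both of these IDs the level in HCC/NAC was a small remnant of that in control.

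The 9 members called higher in HCC/NAC than in control passed the control level by modest amounts, from 114% to 168% of control. The most abundant of them, ranked 18 in control, had 980.0 and 948.0 CPM in control, 465.4 and 457.9 CPM in HCC, and 1099 and 1090 CPM in HCC/NAC libraries. The member ranked 42 had 175.0 and 185.5 CPM in control, 70.9 and 68.1 CPM in HCC, and 282.7 and 270.9 CPM in HCC/NAC libraries. In both, the HCC/NAC libraries lay above the control libraries without overlap. The largest excess belonged to the member ranked 117, with 9.35 and 8.30 CPM in control, 4.35 and 4.29 CPM in HCC, and 16.4 and 13.3 CPM in HCC/NAC libraries. Under RLE and upper-quartile scaling 10 and 12 members were called higher.

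Of the 42 members with control at least 8 times HCC, 3 were not called lower in HCC/NAC than in control (edgeR). Over all IDs tested, 24.9% were called lower. A high control value both admits a member to this class and favours a lower call, so nothing is read from the count of 3. The one ranked 100 had 16.8 and 20.7 CPM in control, 0.999 and 0.874 CPM in HCC, and 11.8 and 15.6 CPM in HCC/NAC libraries, or 72.8% of control with both libraries below both controls. The one ranked 131 had 6.69 and 7.67 CPM in control, 0.377 and 0.923 CPM in HCC, and 10.1 and 12.3 CPM in HCC/NAC libraries, or 156% of control with both libraries above both controls. The one ranked 134 had 5.18 and 6.885 CPM in control, 0.178 and 0.474 CPM in HCC, and 5.48 and 4.98 CPM in HCC/NAC libraries, or 86.7% of control. In these 3 members mean HCC/NAC was 14.6 to 17.2 times mean HCC, and control levels were low, at 5.18 to 20.7 CPM.

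Membership near the thresholds was a matter of small differences. The members closest to the limit on HCC stood at 49.8%, 49.7% and 49.4% of control, and the nearest IDs outside it at 51.0%, 51.8% and 52.3%. The members closest to the limit on HCC/NAC had ratios to HCC of 2.01, 2.01 and 2.03, and the nearest IDs outside had 1.99, 1.98 and 1.97. Mean control levels just inside the minimum were 5.01, 5.04 and 5.21 CPM, and just outside 4.92, 4.85 and 4.81 CPM. No threshold fell in a gap between members and other genes.

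The choice of members depended on how libraries were scaled. The TMM factors were 0.920 and 0.914 for control, 1.19 and 1.18 for HCC, and 0.920 and 0.915 for HCC/NAC libraries, so scaling lowered HCC levels relative to both other groups. With no scaling factor 71 IDs met the rule, and all 71 were members. On that scale the median of all IDs detected in each library shifted to 0.35 in HCC against control and to -0.43 in HCC/NAC against HCC (log2), beside -0.02 and -0.05 with TMM. The 71 members that met the rule under each of the 4 scalings had medians of 13.3% (HCC) and 61.5% (HCC/NAC) of control. The other 71 had medians of 29.7% and 67.6%. With RLE and upper-quartile scaling 149 and 143 IDs met the rule, of which 138 and 133 were members.

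The pattern was also read in libraries whose levels were not used for the choice, although the expression filter and the scaling used all 6 libraries. With the rule applied to replicate 1 of each group, 162 IDs were found, and in replicate 2 of the groups 156 of them had HCC below both control and HCC/NAC. Both limits, HCC at most 50% of control and HCC/NAC at least 2 times HCC, were met again by 110 of the 162 (67.9%), beside 1.78% of all 9244 IDs at that control level. With the rule applied to replicate 2, 164 IDs were found, of which 111 (67.7%) met both limits in replicate 1, beside 1.72% of 9276 IDs. In the libraries whose levels were not used, the median HCC level was 24.1% and 23.6% of control. The median HCC/NAC level there was 62.7% and 55.9% of control. Since the libraries of a group are not said to come from different animals, this measures how repeatable the libraries were and not how animals varied.

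Total counts ranged from 33917707 to 37717373 per library, and no member was at 0 in a library. The lowest count of a member was 3, in HCC replicate 2, and 135 of 142 members had at least 10 counts in each library. Control replicate 1 and both HCC/NAC libraries held few IDs with 1 to 5 counts (336, 632 and 708) beside control replicate 2 and both HCC libraries (3271, 2847 and 3364). This split separates HCC from HCC/NAC, and its part in the values of the 19 members with a mean HCC level under 1 CPM was not tested. The median member differed between replicates by 1.08-fold in control, 1.11-fold in HCC and 1.10-fold in HCC/NAC livers. The file names carry 1 prefix for the control libraries and another for all 4 carcinogen libraries. What it stands for is not given in the sources used here, and it cannot be told apart from carcinogen treatment, while HCC and HCC/NAC share it. In whole liver, fewer cells of a type and less RNA per cell cannot be told apart, and markers of other cell types could not be read without gene names.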

How the data were processed

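Liver poly(A) RNA of 3 groups was measured in 6 libraries. The authors deposited raw counts for each Ensembl gene ID, made with STAR and featureCounts per the submitters' processing notes, which also name FastQC and edgeR, without versions. For the genome build, annotation and strand setting no statement was found, and they were not given in the sources used here. Reads that paralogs or overlapping genes share may have been split or dropped. The analysis used edgeR 4.0.16 (R 4.3.3): filterByExpr by group, TMM scaling and 1 quasi-likelihood model over all 6 libraries (3 residual degrees of freedom), with Benjamini-Hochberg adjustment over 16898 IDs and calls at 0.05. Standard errors came from the F statistic. Replicates differed by more than Poisson sampling noise in each group (chi-square per degree of freedom 10.2, 5.22 and 12.2). The method was tested on simulated data. The outcome of that test is not given here and no result rests on it. A missing call does not show that levels were equal.

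The members and lists were chosen with earlier results of these data known. The planned gene lists, cell type markers and promoter motifs could not be applied, since 0 IDs matched a symbol. Without symbols, the rule named the 2 members with the largest ratio of control to HCC and the 2 with the lowest ratio of HCC/NAC to control, which are 3 IDs. Alternatives were RLE, upper-quartile and no scaling, other filters and thresholds, DESeq2 1.42.0, the replicate number as a block, the compared groups only, and leaving out each library. Fits to IDs of at least 10 CPM and a rule with at least 10 counts in each library were added after the data were seen.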

Additional observations from a re-analysis of the deposited data

How the results depend on the processing

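The number of members stayed within 1.5 times of 142 in 14 of 18 alternatives. It was 71 with no scaling factor, 386 with ratios of 1.5 times, 52 with ratios of 3 times and 229 with a control minimum of 1 CPM. Leaving out 1 library gave 137 to 146 IDs that met the rule, of which 123 to 136 were among the 142 members. The number was thus steadier than the list. Without HCC/NAC replicate 2, 142 IDs again met the rule, and 125 of them were members. Of the calls of HCC/NAC against control, leaving out 1 library gave 7 to 9 higher and 78 to 86 lower members. Higher members numbered 19 in a fit of IDs averaging at least 10 CPM, which tested 101 members. The median log2 ratio of HCC/NAC to control over the members, -0.63, was -0.56 with RLE and -0.49 with upper-quartile scaling and ran from -0.67 to -0.53 when 1 library was left out. The cause of these shifts was not tested. The replicate numbers are not said to mark a shared animal or day, and deviations of same-numbered libraries correlated across IDs by 0.06, 0.016 and -0.00081. With the replicate number as a block, 10 members were higher and 87 lower in HCC/NAC than in control, and 142 and 141 were called in the other contrasts. DESeq2 called 10 higher and 80 lower. The 4 named IDs were called lower in HCC/NAC than in control under each alternative that tested them; the stricter filter left ENSRNOG00000014555 and ENSRNOG00000002597 untested. Depth limits the members with few counts in HCC, whose ratios to HCC have wide counting intervals.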

Other observations

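Ensembl numbers its gene IDs in series, so that IDs with high numbers entered the rat annotation later than those with low numbers. Of the 142 members, 49 (34.5%) had a number above 60000, beside 3654 of the 16898 IDs tested (21.6%), 130 of the 780 lowered IDs that were not members (16.7%) and 1024 of the 9265 IDs with a mean control CPM of at least 5 (11.1%). The break at 60000 was chosen after the IDs were seen, and the shares are a description with no test. Recent IDs can belong to families of similar genes whose reads are hard to assign, and how such reads were counted is not stated in the labels or headers.

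The header of each count table names the alignment by numbered items. For 5 libraries the last 2 items are consecutive, such as 12 and 11 for control replicate 1, whereas HCC replicate 1 lists items 8 and 13. The total count of HCC replicate 1, 37717373, was the highest of the 6 libraries. Without HCC replicate 1, 141 IDs met the rule, of which 123 were members.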
